A study of Mus musculus with 4 samples.

Results

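The genes described here are known from the control of erection in the adult penis and were measured in the fetal penis. They are the angiotensin precursor Agt and its receptors Agtr1a and Agtr2, the endothelin precursor Edn1 and its receptors Ednra and Ednrb, the nitric oxide receptor subunits Gucy1a1 and Gucy1b1, the cGMP phosphodiesterase Pde5a and the prostacyclin synthase Ptgis. The 10 genes were taken by name, in a list drawn up with earlier results of these data known. All 10 were found among the 32287 features of the count files. The shares of these genes called are therefore set beside those of all genes as a description only. Their mRNA was measured in single cells of the penis of male mouse embryos at E16.5, in 2 control and 2 ablated samples. That age is the one in the series' own description, while the heading of one panel in the study names a later day. The labels number the samples of a genotype as replicates and do not say how many penises went into each. All embryos carried Rosa-LSL-DTA f/+, an allele that makes diphtheria toxin only in cells in which Cre recombinase has been active. The control embryos (DTA-, called WT in the sample labels) had no Nr5a1-Cre, so the controls are not plain wild type but carriers of the silent toxin allele. The ablated embryos (DTA+) also carried Nr5a1-Cre, which kills cells that have expressed Nr5a1, the master regulator of steroid-making cells. That Cre is active in the testis and adrenal gland as well as in cells that migrate into the penis, so loss of hormones and loss of those penile cells cannot be told apart in this design.

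Angiotensinogen is cut by renin and angiotensin-converting enzyme to angiotensin II, which contracts smooth muscle through the type 1 receptor, whereas the type 2 receptor is known for its high level in fetal mesenchyme and often opposes the type 1 receptor. Endothelin 1, released by endothelium, contracts smooth muscle through Ednra, while Ednrb on endothelium promotes nitric oxide release and on neural crest cells supports the growth of melanocytes and enteric neurons. Nitric oxide from nerves and endothelium activates soluble guanylyl cyclase, a dimer of Gucy1a1 and Gucy1b1 that makes cGMP. cGMP activates the kinase Prkg1 and relaxes the muscle, and Pde5a, the target of sildenafil, breaks cGMP down. Prostacyclin made by Ptgis relaxes vessels through its receptor Ptgir. In the adult penis the contracting and relaxing arms together set the tone of the corpora cavernosa.

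Values are UMI counts (unique molecular identifiers, each marking a captured mRNA molecule), summed over the cells of a population in each sample and given as CPM, the gene's count relative to all UMIs of that sum. The libraries held 11343 to 12580 cells and 50779551 to 73577028 UMIs each. Limits of over 1000 and under 7500 UMIs and on mitochondrial and hemoglobin reads left 31132 of 47040 cells, and the first control lost the largest share to the upper limit, 21.4% of its cells against 9.98% to 11.2% in the other 3. Clustering gave 27 clusters and 21 populations, of which 20 had enough cells in every sample for a test. A name ending in "-like" rests on marker genes, whereas mesenchymal clusters without such a name are called by leading genes, as in Thbd/Ndufa4l2 cells. The Akap12-led population joined 3 clusters that differed between the genotypes: its Ly6a-led cluster held 272 and 845 cells in the controls but 29 and 9 in the ablated samples, and its Ccn3-led and Iyd-led clusters were mostly of ablated cells. The smooth muscle-like cluster, with 113 and 173 control cells but 28 and 7 ablated cells, was described without a test. As a check of the model, Fkbp5, a gene induced by steroid hormones, stood at 74.3 and 76.0 CPM over all cells in the controls and at 12.3 and 13.1 in the ablated samples (log2 fold change -2.63 ± 0.12, SE, adjusted p = 0.00178). Nr5a1 itself had 0 UMIs in 3 samples and 2 UMIs in the second ablated sample, so its mRNA could not check the labels.

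Genotypes were compared with edgeR's quasi-likelihood test over all genes of a population, with Benjamini-Hochberg adjustment, and a gene with an adjusted p under 0.05 is said to have risen, fallen or been called. Fold changes are log2 values of ablated over control, with SE. An exact permutation test (two-sided) on 2 against 2 samples reaches p = 0.333 at best, so each call rests on the fit across all genes. The levels of a gene were compared across populations but never between genes. In sums over all cells or over the pooled mesenchyme, fewer cells of a type and less RNA per cell cannot be told apart.

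The 10 genes divided among vascular, neural and mesenchymal cells. Gucy1a1, Gucy1b1 and Agtr1a were highest in pericyte-like cells, the cells that wrap small vessels. Edn1 was highest in endothelium-like cells and Ednrb in Schwann and glia-like cells. Agt was highest in chondrogenic-like mesenchyme, Ptgis and Agtr2 in the Thbd/Ndufa4l2 cells, Ednra in the Rprm/Dsc3 cells and Pde5a in smooth muscle-like cells. All these places follow the mean of the controls. For Agtr2 the control range of the Akap12-led cells overlapped that of the highest population, and for Pde5a those of the pericyte-like and Sostdc1/Wnt16 cells did.

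**Figure D1:**
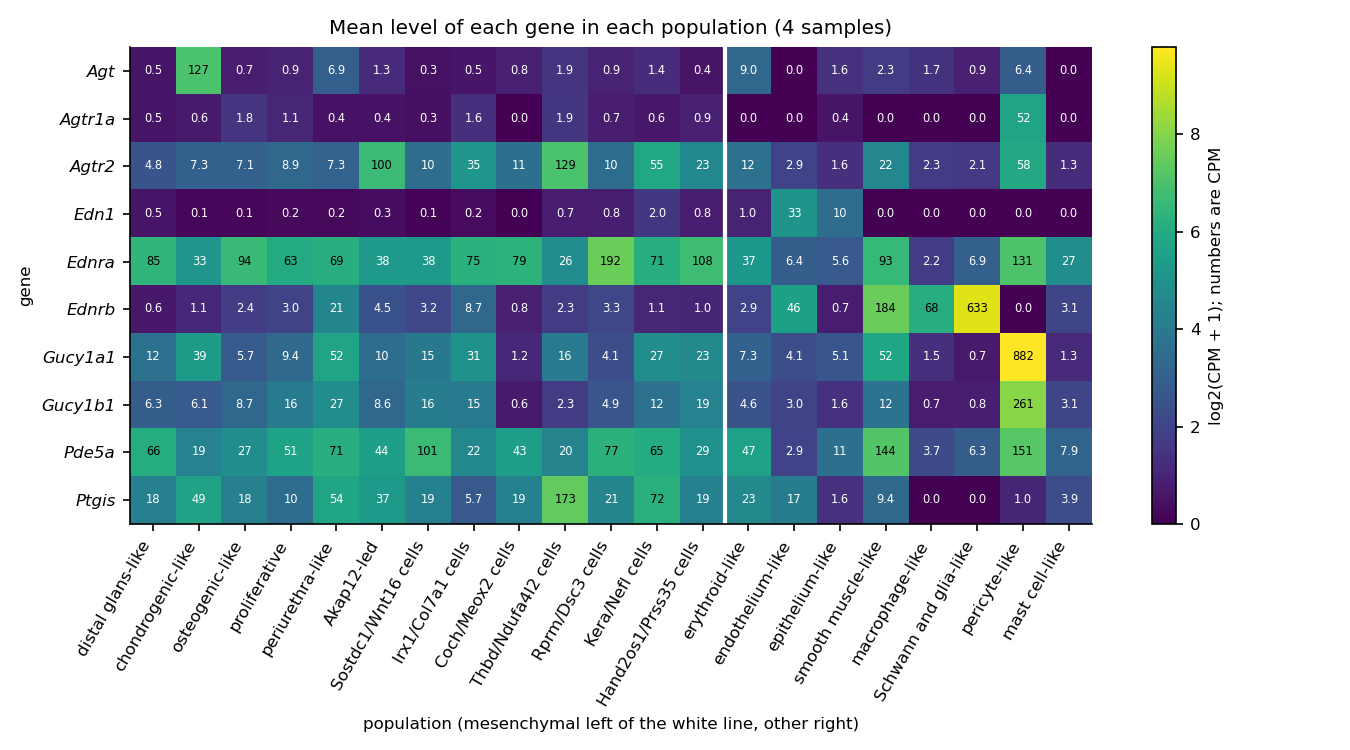
Mean CPM of each of the 10 genes (rows) in the 21 populations (columns), with each mean taken over all 4 samples, control and ablated together. Gucy1a1 and Gucy1b1 share their highest column, the pericyte-like cells, whereas Agt stands out only in chondrogenic-like mesenchyme, where its 4 values lay between 105 and 158 CPM.

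Over the 20 populations, 90 pairs of a gene and a population had enough counts to be tested, and 14 were called, 6 higher and 8 lower in ablated samples, beside 3.06% of all gene and population pairs. DESeq2 called 8 of the 90, with 15 pairs left without an adjusted p, and edgeR's likelihood ratio test called 25. The share of all genes called was computed for the quasi-likelihood test only. Counts from DESeq2 and the likelihood ratio test, here and below, therefore have no such share beside them and are not comparable with 3.06%. Ptgis gave 6 of the 14 calls, all lower, and Gucy1a1 gave 4, all higher. Ednrb fell in 2 populations, and Agtr2 and Gucy1b1 rose in 1 each. Agt, Agtr1a, Edn1, Ednra and Pde5a were called in no population.

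Calls were read against the share of all tested genes called in the same cells. In the pooled mesenchyme, 3 of 9 tested members were called, beside 1.2% of all genes, and the median fold change of the 9 was -0.08 against 0.00 for all genes. Over all cells, 0 of 10 were called by edgeR's quasi-likelihood test, beside 0.488% of all genes. An unadjusted p under 0.05 was reached by 2 of the 10, beside 2409 of 15977 genes, and DESeq2 called 1. The distal glans-like cells had 2 of 6 members called beside 3.87% of all genes, the Akap12-led cells 2 of 7 beside 3.49%, and the Sostdc1/Wnt16 cells 2 of 6 beside 1.89%. The Coch/Meox2 cells had 2 of 4 beside 8.55%, and the Thbd/Ndufa4l2 cells 2 of 5 beside 12.3%. A single member was called in the chondrogenic-like mesenchyme (1 of 7, beside 8.97%), the osteogenic-like cells (1 of 5, beside 3.18%), the periurethra-like cells (1 of 8, beside 3.09%) and the Irx1/Col7a1 cells (1 of 7, beside 0.578%). In the remaining 11 populations none of 35 pairs was called by edgeR's quasi-likelihood test, beside 0 to 0.802% of all genes per population. An unadjusted p under 0.05 was reached by 10 of the 35. Of these, 4 were among the 7 members tested in the proliferative cells, where 994 of 11130 genes reached it. DESeq2 called 0 of the 35 and the likelihood ratio test 4.

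**Figure D2:**
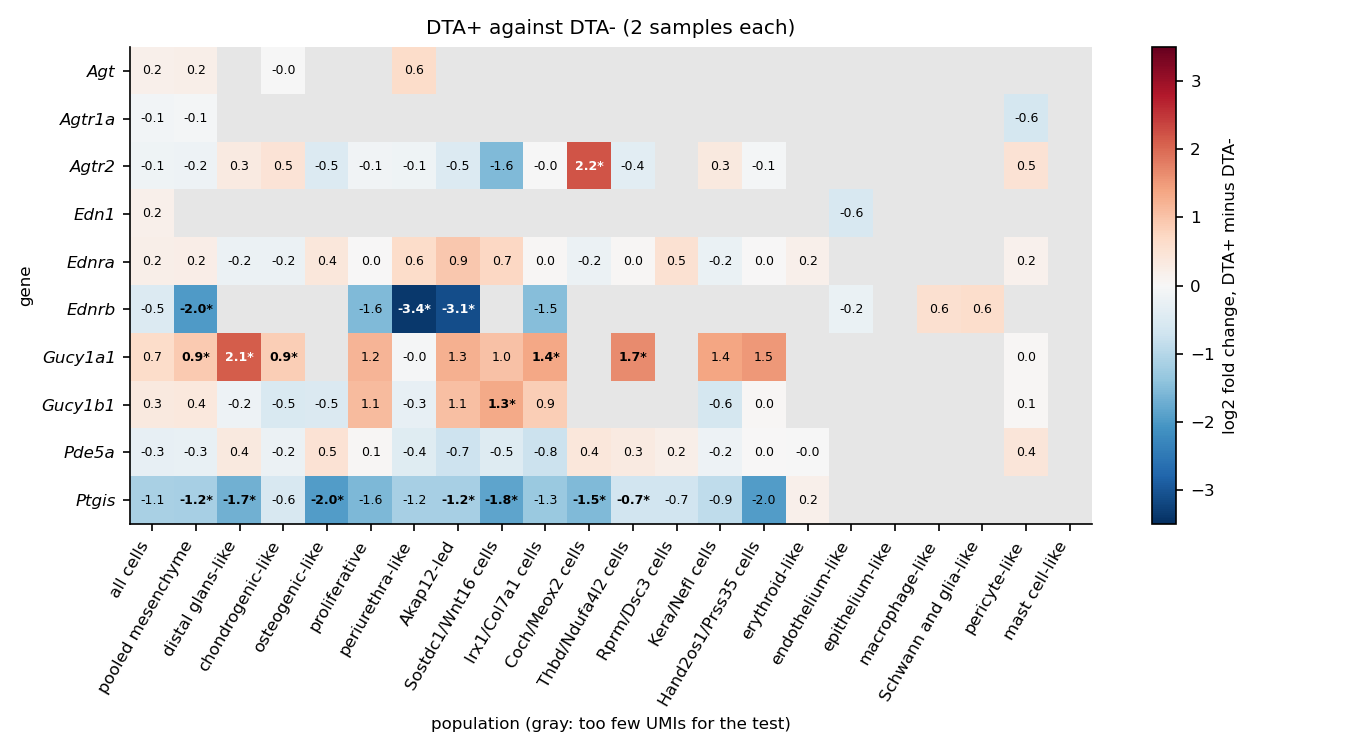
Log2 fold change, ablated over control, of each of the 10 genes in every population in which it was tested, with colour for the fold change and an asterisk for an adjusted p under 0.05. Ptgis is lower in 13 of its 14 populations and Gucy1a1 higher in 10 of its 11, while Ednra and Pde5a carry no asterisk.

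Agt, the source of all angiotensins, was a gene mainly of a single population. Chondrogenic-like mesenchyme, marked by Sox9, Col9a1 and other cartilage genes, held 88.1% of its 1549 UMIs. It stood there at 119.8 and 126 CPM in the controls and at 158 and 105 CPM in the ablated samples, and the ablated values lay on either side of the control values (fold change -0.01 ± 0.18, adjusted p = 0.987). Of these cells 31.9% had an Agt UMI (exact binomial 95% interval 30.2 to 33.7%, median depth 3832 UMIs), against 2.74% of erythroid-like cells (median 4742) and 0.676% of macrophage-like cells (median 4807), which should lack it. In the controls no other population's range overlapped that of the chondrogenic-like cells. Periurethra-like cells, the only other population tested, had 5.07 and 5.16 CPM in controls and 10.6 and 6.69 CPM in ablated samples (0.65 ± 0.40, adjusted p = 0.485). In the Thbd/Ndufa4l2 cells Agt had 0 UMIs in both controls and 7 and 3 UMIs in the ablated samples, from 451 and 455 cells. Against a floor of 3 UMIs over the controls the ratio was 4.76, without the counting error of the ablated UMIs. Even at 1 UMI per cell, the share of these ablated cells with an Agt UMI was below that of erythroid-like cells.

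Agtr1a, the receptor through which angiotensin II contracts vessels, had only 141 UMIs in the kept cells, of which pericyte-like cells held 36.9%. Their values were 81.9 and 50.9 CPM in the controls and 45.6 and 28.9 CPM in the ablated samples, from 9, 19, 17 and 7 UMIs. Both ablated values lay below both control values, but the difference was within the spread at this depth (-0.62 ± 0.43, adjusted p = 0.944). An Agtr1a UMI was found in 21.5% of pericyte-like cells (exact 95% interval 16.2 to 27.7%, median depth 5571) and in 0 of 547 erythroid-like cells (exact upper bound 0.672%). The gene ranked next in the Irx1/Col7a1 cells, far below the pericyte-like range, and from there on neighbouring populations overlapped.

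Agtr2, the type 2 receptor, had 3701 UMIs, and the Akap12-led and Thbd/Ndufa4l2 mesenchyme held 38.0% and 23.7% of them. It stood at 94.1 and 196 CPM in control and 109 and 118 CPM in ablated Thbd/Ndufa4l2 cells (-0.38 ± 0.24, adjusted p = 0.337). The Akap12-led cells, whose range overlapped that of the Thbd/Ndufa4l2 cells, had 115 and 111 CPM in controls and 87.9 and 84.1 CPM in ablated samples (-0.47 ± 0.15, adjusted p = 0.163). Within that population the Ccn3-led cluster, with 96 and 13 control and 291 and 646 ablated cells, had 227 and 147 CPM in controls and 188 and 119 CPM in ablated samples. The Ly6a-led cluster had 83.1 and 111 CPM in controls and 646 and 669 CPM in its 29 and 9 ablated cells, whereas the Iyd-led cluster had 0 CPM in its 9 and 8 control cells and 8.13 and 3.65 CPM in ablated cells. These clusters were not tested. Pericyte-like cells followed at 63.7 and 37.5 CPM in controls and 53.6 and 78.5 CPM in ablated samples, with overlap.

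Agtr2 rose in the Coch/Meox2 cells, a mesenchymal cluster in which it was low in controls. It went from 4.45 and 3.21 CPM to 17.6 and 19.7 CPM, from 10, 6, 34 and 26 UMIs, with the groups well apart (2.21 ± 0.38, adjusted p = 0.000833). This call was kept in each of the 13 alternative settings that gave an adjusted p, of 15 run. DESeq2 gave none for Agtr2 in these cells and so did not call it, and thinning to equal depth did not call it either. Erythroid-like cells had 3.44 to 17.1 CPM and macrophage-like cells an Agtr2 UMI in 1.01% of cells, so 1 control value was within and the other just below the erythroid-like range, and both ablated values just above it. The rise was larger than that in the rest of the mesenchyme by 2.41 ± 0.39 on the log2 scale (interaction adjusted p = 0.000129, beside 1.48% of all genes with such an interaction, and 0.269 after thinning). The summed general prepuce markers, which include Dlk1, moved the same way in these cells, 1011 and 1075 CPM in controls and 2194 and 1704 CPM in ablated samples, and their part in the Agtr2 result was not tested. In 12 further populations Agtr2 was tested and not called.

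Edn1 had 113 UMIs in all kept cells, 51.3% of them in endothelium-like cells. There it stood at 48.8 and 27.1 CPM in the controls and 40.3 and 15.2 CPM in the ablated samples, from 23, 11, 18 and 6 UMIs, with overlapping groups (-0.55 ± 0.50, adjusted p = 0.877). The same cells were clearly endothelial, with a summed level of the 11 endothelial markers of 6626 to 6807 CPM in every sample. Epithelium-like cells ranked next with 4.69 and 8.37 CPM in controls and 10.4 and 18.3 CPM in ablated samples, too few counts for a test. An Edn1 UMI was found in 6.25% of endothelium-like cells (exact 95% interval 4.29 to 8.75%, median depth 3347.5), against 0.548% of erythroid-like cells.

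Ednra, the contracting endothelin receptor, was among the most widespread of the group, tested in 15 populations, as was Pde5a, and called in none. Rprm/Dsc3 cells had 148 and 162 CPM in controls and 265 and 192 CPM in ablated samples (0.54 ± 0.21, adjusted p = 0.356), and in the controls no other population's range overlapped theirs. Pericyte-like cells followed with 100.1 and 137 CPM in controls and 126 and 161 CPM in ablated samples (0.16 ± 0.29, adjusted p = 0.998). The Akap12-led cells came nearest to a call, with 20.6 and 28.4 CPM in controls and 56.5 and 46.1 CPM in ablated samples (0.94 ± 0.23, adjusted p = 0.0649), in a population whose clusters differed between genotypes as described above. Periurethra-like cells had 45.3 and 59.8 CPM in controls and 96.5 and 74.2 CPM in ablated samples (0.64 ± 0.20, adjusted p = 0.137). In 5 of the 15 populations both ablated values exceeded both control values and in 0 the reverse held, while 34.6 to 56.1% of all genes tested in each of these populations had groups that did not overlap in either direction, so the count lies below the share over all genes. Erythroid-like cells also read 30.8 to 40.6 CPM, and 15.2% of them had an Ednra UMI against 1.01% of macrophage-like cells at nearly the same depth. The erythroid-like level was thus not the lowest reading, so it is not taken as a floor for the mesenchyme. The source of the Ednra UMIs in erythroid-like cells was not tested.

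Ednrb, the other endothelin receptor, was highest in neural crest derivatives. Schwann and glia-like cells, marked by Sox10 and other glial genes, held 43.4% of its 1836 UMIs, and 72.4% of these cells had an Ednrb UMI (exact 95% interval 66.6 to 77.7%) against 1.46% of erythroid-like cells and 0 of 209 pericyte-like cells (exact upper bound 1.75%). The level was 541 and 446 CPM in controls and 662 and 884 CPM in ablated samples (0.62 ± 0.21, adjusted p = 0.941), and both ablated values were higher. This cluster also held melanocyte markers in the first control and the second ablated sample, with a summed level of 3214 and 2428 CPM, but 6.86 and 10.4 CPM in the other pair, and their part was not tested. Smooth muscle-like cells came next at 214 and 195 CPM in controls and 296 and 31.3 CPM in ablated samples, the last from 7 cells. Macrophage-like and endothelium-like cells overlapped each other, at 36.7 to 109 CPM and 38.1 to 56.6 CPM, without a call.

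Ednrb fell in the pooled mesenchyme and, with the largest fold change, in the periurethra-like cells, the mesenchyme around the urethra marked by Foxf1, Foxf2 and Gli1. There it stood at 35.8 and 42.6 CPM in the controls and at 2.64 and 4.56 CPM in the ablated samples, from 106, 99, 5 and 15 UMIs (-3.39 ± 0.30, adjusted p = 0.000571). The groups lay far apart, with 525 to 868 periurethra-like cells in each sample, and the call was kept in each of the 15 alternative settings run. An Ednrb UMI was found in 10.3 and 9.36% of control and 0.952 and 1.04% of ablated cells, the latter at or below the 1.46% of erythroid-like cells. Among cells thinned to equal depth, 2.88% of control and 0.215% of ablated periurethra-like cells had an Ednrb UMI.

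Schwann and glia, melanocyte and endothelial markers were low in the periurethra-like cells of both genotypes. The 8 Schwann and glia markers summed to 9.89 to 14.3 CPM and the 6 melanocyte markers to 7.09 to 15.5 CPM. The 11 endothelial markers summed to 16.8 to 34.1 CPM, and no sum was lower in the ablated samples. These sums do not cover smooth muscle-like and macrophage-like cells, which also had much Ednrb, and their part was not tested. Markers of dermal and subdermal prepuce fibroblasts, among them Ly6a and Pi16, were higher in the ablated periurethra-like cells (1813 and 1098 CPM against 594 and 704 CPM), and their part was not tested.

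**Figure D3:**
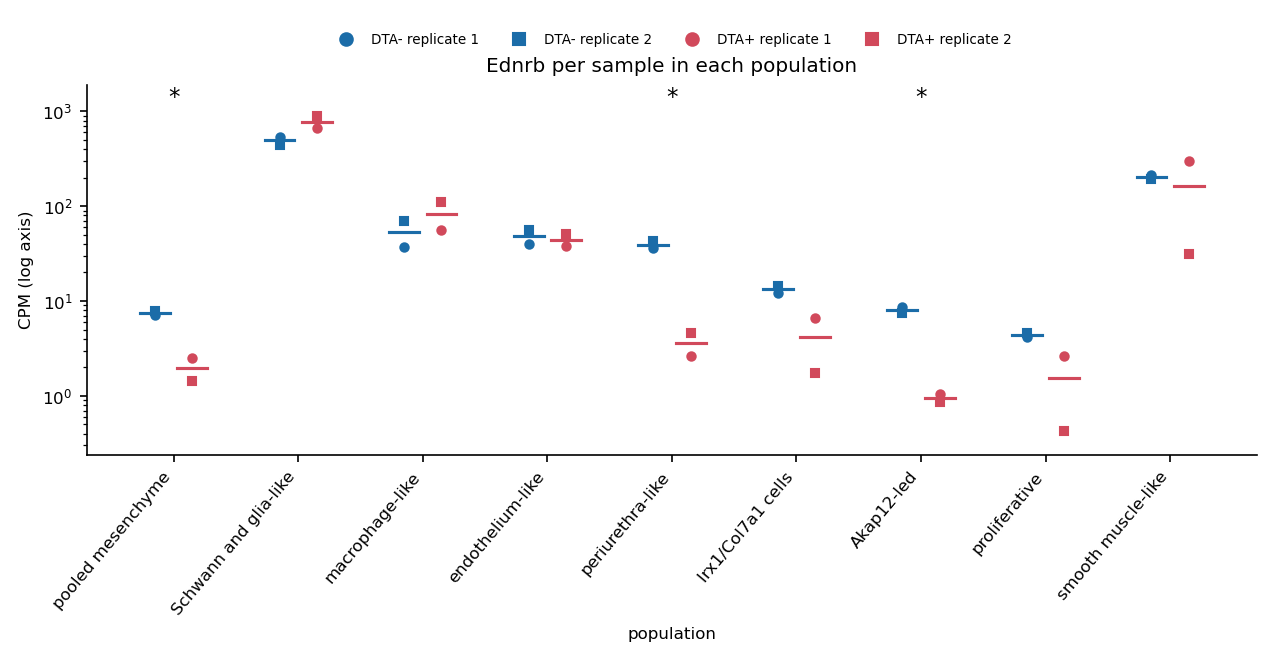
Ednrb in CPM (log axis) for each sample in the pooled mesenchyme, the 7 populations in which it was tested and the smooth muscle-like cells, with bars for the means of 2 samples and asterisks for an adjusted p under 0.05. The ablated periurethra-like values of 2.64 and 4.56 CPM lie far below the control values of 35.8 and 42.6 CPM, whereas the genotypes overlap in endothelium-like and macrophage-like cells.

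In the pooled mesenchyme Ednrb stood at 7.08 and 7.94 CPM in controls and 2.53 and 1.45 CPM in ablated samples (-1.99 ± 0.28, adjusted p = 0.0342), a call lost without the first control (adjusted p = 0.0724) or the second (0.0623). The Akap12-led cells fell from 8.74 and 7.52 CPM to 1.06 and 0.858 CPM (-3.12 ± 0.44, adjusted p = 0.00883, and 0.0641 without the second control). All of their 48 control UMIs came from the Ly6a-led cluster, which had 29 and 9 cells left in the ablated samples, so this fall went along with a change in which clusters made up the population. In the osteogenic-like cells Ednrb had 0 UMIs in the controls and 8 and 5 UMIs in the ablated samples, too few for a test there. Against the floor of 3 UMIs the ratio was 3.03, without the counting error of the ablated UMIs. Over all cells, where Schwann and glia-like cells weigh in, the values were 15.7 and 17.3 CPM against 13.5 and 11.3 CPM (-0.49 ± 0.16, adjusted p = 0.234).

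The Ednrb gene lies on chr14:103814625-103844402, minus strand, in GRCm38. The 250 bases before its RefSeq start site are shown because its fall in the periurethra-like cells was the largest of the 14 called fold changes, with the letters TGTTCT in capitals, which read AGAACA on the other strand, the half-site that androgen and glucocorticoid receptors share. The stretch lies at chr14:103843702-103843951 on the minus strand, within an intron of a longer annotated transcript. Of the 250-base stretches before all 32851 RefSeq mouse start sites, 16.08% hold AGAACA on either strand, so a match is a description of the letters and not of a bound site.
Ednrb: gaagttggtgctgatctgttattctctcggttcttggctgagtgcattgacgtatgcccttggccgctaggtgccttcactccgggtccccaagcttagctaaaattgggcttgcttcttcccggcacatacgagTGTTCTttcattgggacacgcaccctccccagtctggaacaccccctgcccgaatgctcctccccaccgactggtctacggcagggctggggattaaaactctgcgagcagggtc

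Gucy1a1 and Gucy1b1, the subunits of the nitric oxide receptor, were found together. Pericyte-like cells, marked by Rgs5, Kcnj8 and Abcc9, had Gucy1a1 at 801 and 930.2 CPM in controls and 1121 and 677 CPM in ablated samples (0.05 ± 0.24, adjusted p = 0.998). Gucy1b1 in the same cells stood at 273 and 247 CPM in controls and 329.9 and 194 CPM in ablated samples (0.05 ± 0.27, adjusted p = 0.998). Neither gene's groups were separated there, and no other population's range overlapped that of the pericyte-like cells for either gene. A Gucy1a1 UMI was found in 92.3% of pericyte-like cells (exact 95% interval 87.9 to 95.6%, median depth 5571), against 3.29% of erythroid-like cells and 0.676% of macrophage-like cells. Over the mean log2(CPM + 1) of 21 populations the pair correlated at r = 0.915, and among 10030 genes each was the other's nearest neighbour.

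Gucy1a1 rose in the pooled mesenchyme of the ablated samples and in 4 of the 11 populations in which it was tested. Over the pooled mesenchyme it stood at 12.1 and 14.5 CPM in controls and at 27.4 and 25.04 CPM in ablated samples (0.91 ± 0.15, adjusted p = 0.0466). This call was close to the threshold and was lost without the first control (adjusted p = 0.0724), the second control (0.0507) or the first ablated sample (0.0658). In 9 of the 11 populations tested both ablated values exceeded both control values, and in 0 the reverse held, beside 34.6 to 56.1% of all genes per population whose groups did not overlap in either direction. The 9 pericyte markers summed in the pooled mesenchyme to 389.8 and 364 CPM in controls and 302 and 312 CPM in ablated samples. That list includes Ndufa4l2, a leading gene of the mesenchymal Thbd/Ndufa4l2 cells, so the sum does not measure pericyte RNA alone. The part of pericyte RNA in the rise was not tested.

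The largest fold change of Gucy1a1 was in the distal glans-like cells, mesenchyme at the tip of the penis marked by Msx2, Tac1 and Inhba. It went from 4.05 and 4.32 CPM to 25.2 and 14.5 CPM (2.13 ± 0.34, adjusted p = 0.0029). The same pericyte markers summed to 176 and 221 CPM in controls and 151 and 139 CPM in ablated samples, and their part was not tested. Nearly all Gucy1a1 UMIs of these cells came from the Msx2-led cluster. There the gene stood at 7.33 and 7.11 CPM in controls and 38.0 and 23.0 CPM in ablated samples (2.00 ± 0.34, adjusted p = 0.0108, beside 1.7% of all genes). That cluster was tested alone after the data had been seen. The Tac1-led cluster had 0 CPM in both controls and 1.09 and 1.89 CPM in the ablated samples. Cells with a Gucy1a1 UMI made up 1.44 and 1.34% of the control and 5.51 and 3.91% of the ablated distal glans-like cells (median depth 2991), against 3.29% of erythroid-like cells (median 4742), whose level was 4.59 to 10.8 CPM. In CPM the control values were thus below the erythroid-like range and the ablated values above it. Macrophage-like cells read lower, with 2 Gucy1a1 UMIs in 296 cells, so the erythroid-like range was not the lowest reading. In cells thinned to equal depth the share was 0.523% in controls and 1.59% in ablated samples, against 0.309% and 0.897% in erythroid-like cells, and after thinning the call was lost (adjusted p = 0.133).

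Chondrogenic-like mesenchyme rose from 24.4 and 28.6 CPM to 47.8 and 56.8 CPM (0.87 ± 0.20, adjusted p = 0.0118), a call lost without the second ablated sample (0.72, adjusted p = 0.185). The Thbd/Ndufa4l2 cells rose from 9.49 and 4.64 CPM to 28.2 and 20.6 CPM (1.66 ± 0.36, adjusted p = 0.0049). The Irx1/Col7a1 cells rose from 12.6 and 20.4 CPM to 44.9 and 46.4 CPM (1.35 ± 0.25, adjusted p = 0.0399, and 0.0621 without the first control). In all of these the control and ablated values were well apart.

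Periurethra-like cells, which had the most Gucy1a1 of the tested mesenchyme in controls, differed from the rest. They stood at 48.3 and 56.4 CPM in controls and 42.7 and 61.1 CPM in ablated samples (-0.03 ± 0.21, adjusted p = 0.964). The difference between their fold change and that of the remaining mesenchyme was -1.28 ± 0.25 (interaction adjusted p = 0.0205, beside 1.75% of all genes with such an interaction), and the interaction was lost without the first (0.0614) or the second control (0.0745). Smooth muscle-like cells ranked beside them, at 51.7 and 98.9 CPM in controls and 59.3 and 0 CPM in ablated samples.

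**Figure D4:**
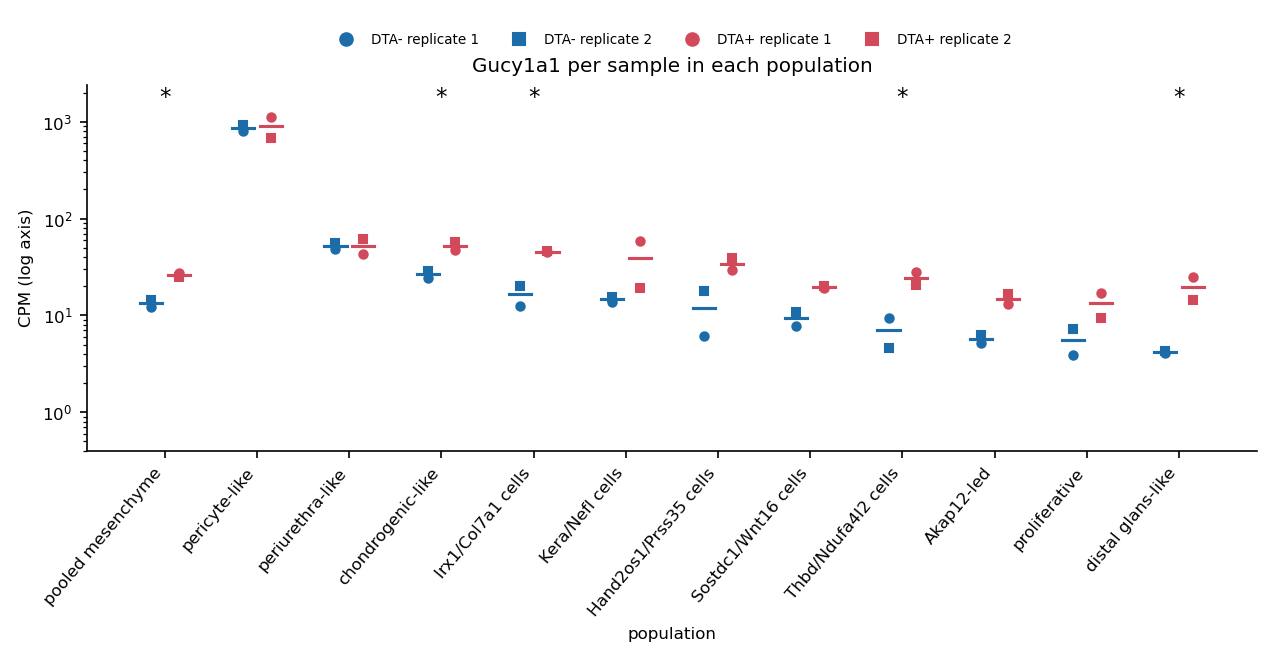
Gucy1a1 in CPM (log axis) for each sample in the pooled mesenchyme and the 11 populations in which it was tested, with bars for the means of 2 samples and asterisks for an adjusted p under 0.05. The ablated points lie above the control points in the distal glans-like cells (14.5 and 25.2 CPM against 4.05 and 4.32 CPM) and overlap them in the pericyte-like and periurethra-like cells.

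Gucy1b1 rose in 1 population, the Sostdc1/Wnt16 cells, from 7.73 and 10.1 CPM to 26.3 and 20.7 CPM (1.32 ± 0.28, adjusted p = 0.0237). The call was lost without the first ablated sample (adjusted p = 0.179). Its partner in the same cells went from 7.73 and 10.9 CPM to 19.3 and 20.3 CPM without being called (1.02 ± 0.28, adjusted p = 0.096). In the distal glans-like cells, where Gucy1a1 rose, Gucy1b1 stood at 6.49 and 6.48 CPM in controls and 7.15 and 5.14 CPM in ablated samples (-0.18 ± 0.36, adjusted p = 0.848). In the chondrogenic-like mesenchyme it stood at 3.99 and 9.80 CPM in controls and 4.31 and 6.11 CPM in ablated samples (-0.52 ± 0.44, adjusted p = 0.515). The difference between the fold changes of the subunits was not tested. In the pooled mesenchyme Gucy1b1 was not called (0.36 ± 0.18, adjusted p = 0.35).

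The subunit genes are neighbours on the minus strand of chromosome 3, Gucy1b1 at chr3:82032006-82074689 and Gucy1a1 at chr3:82092427-82145789 in GRCm38, with 17737 bases and 0 whole annotated genes between them. Their upstream stretches are shown because the genes shared their highest population. Capitals mark GGGCGG, the core of a GC box (in 32.74% of all such 250-base stretches on either strand), and in Gucy1b1 also TGTTCT, the half-site letters read on the other strand. For Gucy1b1 the whole 250 bases before the start are given (chr3:82074712-82074961), and for Gucy1a1 the 111 bases of that stretch that lie outside annotated exons (chr3:82145790-82145900), both on the minus strand.
Gucy1b1: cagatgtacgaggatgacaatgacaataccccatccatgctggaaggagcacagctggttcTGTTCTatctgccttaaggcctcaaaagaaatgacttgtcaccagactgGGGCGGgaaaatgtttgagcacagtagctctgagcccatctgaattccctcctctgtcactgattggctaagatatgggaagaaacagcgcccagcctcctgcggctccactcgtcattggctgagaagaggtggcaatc
Gucy1a1: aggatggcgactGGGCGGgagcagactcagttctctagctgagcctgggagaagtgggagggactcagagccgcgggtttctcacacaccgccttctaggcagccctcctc

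Promoters were found for 8 of the 10 members, at 9 start sites. The letters TATAAA, held by 12.37% of all such stretches, occurred in Agt, from 30 to 25 bases before the start, GGGCGG also occurred in Pde5a, and neither TGAGTCA (AP-1, in 4.463%) nor a CArG box (in 1.467%) occurred before any of the 9. The libraries read the 3' ends of transcripts, so use of these start sites was not measured.

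Pde5a was broadly spread and called in no population. Smooth muscle-like cells had 114 and 160.0 CPM in controls and 81.5 and 219 CPM in ablated samples, and pericyte-like cells 81.9 and 155 CPM in controls and 145 and 223 CPM in ablated samples (0.42 ± 0.32, adjusted p = 0.966). These highest populations overlapped each other, and each group overlapped within them. The Sostdc1/Wnt16 cells held the largest share of its UMIs, 20.4% of 6315, at 96.8 and 133 CPM in controls and 88.5 and 84.8 CPM in ablated samples (-0.46 ± 0.19, adjusted p = 0.343). Over its 15 populations the fold change ran from -0.75 to 0.51, with 8 above and 7 below 0. Erythroid-like cells read 35.2 to 58.1 CPM, close to several mesenchymal populations. Macrophage-like cells read 0 to 2.94 CPM in controls, so the erythroid-like level was not the lowest reading, and its source was not tested.

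Ptgis, which makes prostacyclin, was the member that fell most widely. It was mainly a mesenchymal gene, and the Thbd/Ndufa4l2 cells held 29.3% of its 4241 UMIs. Of these cells 44.0% had a Ptgis UMI (exact 95% interval 41.7 to 46.3%, median depth 3688). The share was 8.96% in erythroid-like cells and 0 of 296 in macrophage-like cells (exact upper bound 1.24%). Endothelium-like cells had 19.7 to 25.4 CPM in controls, a range that overlapped that of the distal glans-like cells. Pericyte-like cells, where the nitric oxide receptor was highest, had a Ptgis UMI in 0.478% of cells. In the pooled mesenchyme it fell from 54.8 and 43.0 CPM to 22.1 and 23.7 CPM (-1.16 ± 0.16, adjusted p = 0.028), a call kept in each of 15 alternative settings run. Over all cells it stood at 51.2 and 39.4 CPM in controls and 20.6 and 22.6 CPM in ablated samples (-1.15 ± 0.16, adjusted p = 0.0513), just short of a call.

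Of the 14 populations tested, 13 had a fold change below 0, and in 12 both ablated values lay under both control values, beside 35.3 to 56.1% of all genes per population whose groups did not overlap in either direction. Distal glans-like cells fell from 20.5 and 33.7 CPM to 11.7 and 6.48 CPM (-1.68 ± 0.30, adjusted p = 0.005), a call also kept in each of 15 settings. The Sostdc1/Wnt16 cells fell from 32.6 and 25.8 CPM to 9.05 and 7.84 CPM (-1.83 ± 0.27, adjusted p = 0.00303). These calls were the firmest of the population-level falls, with no overlap and little spread in the Sostdc1/Wnt16 cells, although the latter was lost after thinning (adjusted p = 0.12).

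Osteogenic-like cells fell from 24.8 and 32.3 CPM to 9.44 and 5.61 CPM (-1.97 ± 0.37, adjusted p = 0.00467, and 0.0643 without the second ablated sample). The Coch/Meox2 cells fell from 32.5 and 24.1 CPM to 14.5 and 3.79 CPM (-1.54 ± 0.35, adjusted p = 0.00753). There the second ablated sample, with 5 UMIs, decided the size: the fold change was -1.0 without it (adjusted p = 0.0854) and -2.91 without the first ablated sample. The Akap12-led cells fell from 53.5 and 47.1 CPM to 19.5 and 27.7 CPM (-1.15 ± 0.22, adjusted p = 0.0247, and 0.067 without the first ablated sample), again across a change of clusters.

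The Thbd/Ndufa4l2 cells, with the most Ptgis, had the smallest called fall. They went from 221 and 199 CPM to 134 and 139 CPM (-0.67 ± 0.16, adjusted p = 0.00994), with the call lost without the first (adjusted p = 0.152) or the second ablated sample (0.0746). The fall was less than in the rest of the mesenchyme by 0.46 ± 0.14 (interaction adjusted p = 0.0413, beside 4.18% of all genes), a difference lost without any 1 of the 4 samples (adjusted p from 0.106 to 0.283). Chondrogenic-like mesenchyme, at 63.1 and 51.3 CPM in controls and 47.8 and 35.6 CPM in ablated samples, was not called (-0.56 ± 0.19, adjusted p = 0.0774), and its difference from the rest was 0.71 ± 0.18 (interaction adjusted p = 0.0283, beside 2.88% of all genes), lost without the first control (0.053) or the first ablated sample (0.39, adjusted p = 0.525).

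Periurethra-like cells just missed a call for Ptgis, at 95.3 and 52.1 CPM in controls and 38.0 and 31.0 CPM in ablated samples (-1.17 ± 0.28, adjusted p = 0.0556). Erythroid-like cells, at 35.5 and 14.9 CPM in controls and 28.4 and 13.7 CPM in ablated samples, had overlapping groups (0.17 ± 0.46, adjusted p = 0.953). Their level covered that of several mesenchymal populations in controls, while macrophage-like and Schwann and glia-like cells had 0 cells with a Ptgis UMI.

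**Figure D5:**
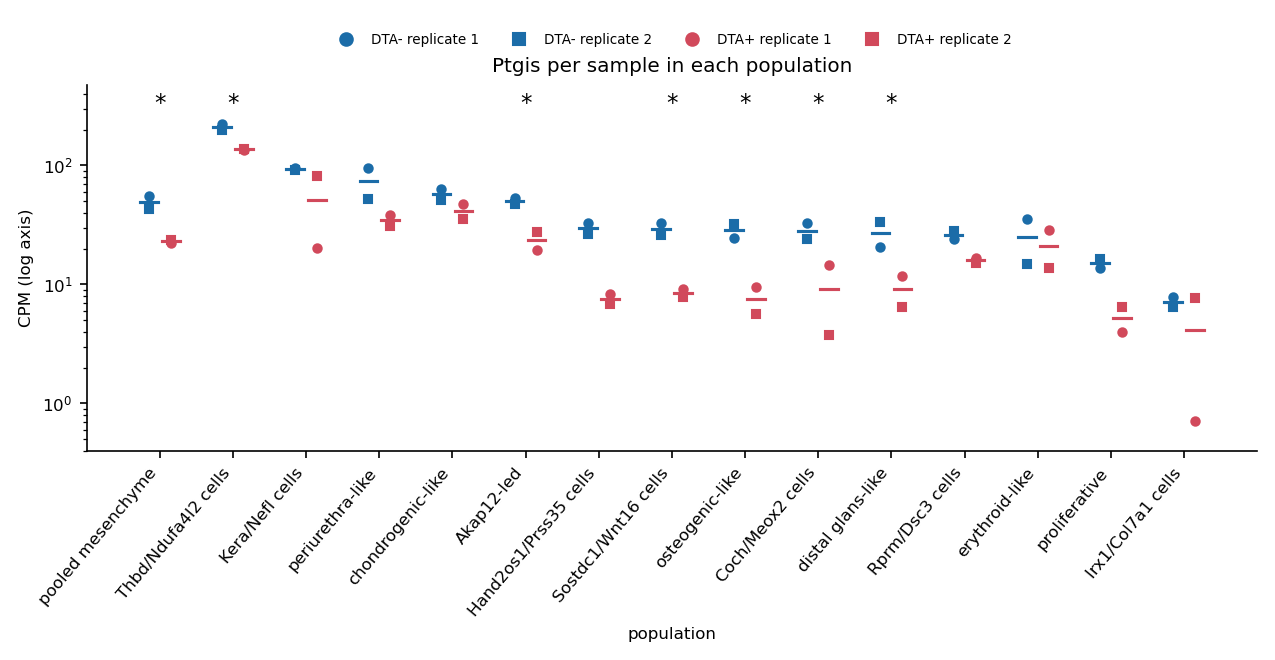
Ptgis in CPM (log axis) for each sample in the pooled mesenchyme and the 14 populations in which it was tested, with bars for the means of 2 samples and asterisks for an adjusted p under 0.05. The ablated points lie below the control points in 12 of the 14 populations (35.3 to 56.1% of all genes per population did not overlap in either direction), from the Thbd/Ndufa4l2 cells (134 and 139 CPM against 221 and 199 CPM) down to the proliferative cells (3.97 and 6.43 CPM against 13.8 and 16.3 CPM).

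Other genes of the same pathways were counted in the same fits. Of 64 further genes of the renin-angiotensin, endothelin, nitric oxide and cGMP, prostanoid and contraction pathways, 475 gene and population pairs were tested over the 20 populations and 26 were called, 13 higher and 13 lower, beside 3.06% of all gene and population pairs. Of the 26, 15 lay in the chondrogenic-like, Coch/Meox2 and Thbd/Ndufa4l2 cells, where 8.97, 8.55 and 12.3% of all genes were called and 85 of the pathway pairs were tested. Of the 26 calls, 4 were kept in every alternative setting that gave an adjusted p. They were Pde3a in the distal glans-like, Pde1a in the periurethra-like, Edn3 in the Sostdc1/Wnt16 and Ddah1 in the Thbd/Ndufa4l2 cells. Of the 475 pairs, DESeq2 called 12, with 60 left without an adjusted p, and the likelihood ratio test called 48. Over all cells 0 of 55 tested were called by edgeR's quasi-likelihood test, beside 0.488% of all genes. An unadjusted p under 0.05 was reached by 11 of them, beside 2409 of 15977 genes, and DESeq2 called 3. In the pooled mesenchyme 0 of 49 were called by the quasi-likelihood test, beside 1.2% of all genes. There 13 had an unadjusted p under 0.05, beside 2634 of 15205 genes, and DESeq2 called 6.

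Nos1 and Nos3, which make nitric oxide, had few UMIs over all kept cells. Nos1 had 8 and 13 control UMIs and 5 and 18 ablated UMIs, and Nos3 had 71 and 54 against 73 and 63, with fold changes of 0.04 and 0.05 over all cells. Ace, which makes angiotensin II, had 21 and 70 UMIs in controls and 22 and 21 in ablated samples (-1.13 ± 0.55, adjusted p = 0.391). Ece1, which activates endothelin, had -0.15 ± 0.14, and Ptgir, the prostacyclin receptor, had 27 and 47 UMIs against 54 and 38 (0.27 ± 0.38).

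On the cGMP side, Pde3a, a phosphodiesterase that cGMP inhibits, rose in 5 populations: by 1.74 in the distal glans-like, 0.95 in the chondrogenic-like, 1.01 in the periurethra-like, 1.15 in the Coch/Meox2 and 1.17 in the Thbd/Ndufa4l2 cells. In the periurethra-like cells it went from 47.6 and 52.5 CPM to 115.5 and 94.3 CPM (adjusted p = 0.0123). Prkg1, the kinase that cGMP activates, rose in the chondrogenic-like cells from 16.0 and 13.9 CPM to 26.6 and 30.6 CPM (0.83 ± 0.24, adjusted p = 0.0386) and in the Coch/Meox2 cells by 1.06, but had -0.07 ± 0.13 over all cells. Pde1c rose by 1.96 in the distal glans-like cells and Pde1b by 1.23 in the chondrogenic-like cells, both of them calcium-dependent phosphodiesterases. The calls of Pde3a and Pde1c in the distal glans-like cells, of Pde3a in the Thbd/Ndufa4l2 cells and of Prkg1 in the Coch/Meox2 cells were kept without any 1 sample. Of these, Pde1c was lost after thinning (adjusted p = 0.113) and without the upper UMI limit (0.126), Pde3a in the Thbd/Ndufa4l2 cells after thinning (0.0906) and at resolution 1.2 (0.513), and Prkg1 with DESeq2 (0.059) and after thinning (0.294). Without a sample the others were lost: Pde3a in the periurethra-like cells without the first (adjusted p = 0.124) or second control (0.0678), in the chondrogenic-like cells without the first ablated sample (0.138) and in the Coch/Meox2 cells without the second control (0.0534), the first (0.277) or the second ablated sample (0.0513). Prkg1 in the chondrogenic-like cells was lost without the first (0.116) or second ablated sample (0.32), and Pde1b without any 1 sample (0.0535 to 0.455).

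Their relative Pde1a moved both ways. It fell in periurethra-like cells from 19.9 and 28.4 CPM to 1.58 and 3.65 CPM (-3.10 ± 0.39, adjusted p = 0.00362) and rose in the Thbd/Ndufa4l2 cells from 9.92 and 12.2 CPM to 29.7 and 29.0 CPM (1.37 ± 0.29, adjusted p = 0.00392). Ddah1, which clears an inhibitor of nitric oxide synthases, fell in the Thbd/Ndufa4l2 cells from 21.6 and 21.5 CPM to 0.782 and 3.22 CPM (-3.35 ± 0.47, adjusted p = 0.000127) and rose by 0.86 in the chondrogenic-like cells. Cygb, a globin that consumes nitric oxide, rose in the osteogenic-like cells by 1.35 and in the Coch/Meox2 cells by 0.70, and Pde3b fell by 1.01 in the chondrogenic-like cells. The Pde1a calls and that of Ddah1 in the Thbd/Ndufa4l2 cells were kept without any 1 sample. Pde1a in the Thbd/Ndufa4l2 cells was lost with DESeq2 (adjusted p = 0.0705), at resolutions 0.4 (0.144) and 1.2 (0.453) and without the upper UMI limit (0.114), with fold changes from 0.61 to 2.40 over the settings, and that of Ddah1 there ran from -4.71 to -1.32. In the chondrogenic-like cells Ddah1 was lost without the first control (0.0581), the first (0.367) or the second ablated sample (0.138), and Pde3b without the first (0.154) or second ablated sample (0.194). Cygb was lost without the first ablated sample in the osteogenic-like cells (0.79, adjusted p = 0.0915, and a fold change of 2.06 without the first control) and in the Coch/Meox2 cells (0.55, adjusted p = 0.388).

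Of the other endothelin and prostanoid genes, Edn3, a ligand of Ednrb, fell in the Sostdc1/Wnt16 cells from 88.7 and 122 CPM to 43.2 and 29.9 CPM (-1.59 ± 0.22, adjusted p = 0.00237) and in the Akap12-led cells from 51.9 and 63.6 CPM to 27.2 and 14.2 CPM. Over all cells it was not called (-0.87 ± 0.26, adjusted p = 0.209). Hpgd, which inactivates prostaglandins, fell by 1.99 in the Sostdc1/Wnt16 cells and by 2.19 in the Thbd/Ndufa4l2 cells. Npr3, the clearance receptor of natriuretic peptides, fell by 2.44 in the Sostdc1/Wnt16 cells and by 2.81 in the Akap12-led cells. The second control decided several of these values: without it Hpgd had -1.25 (adjusted p = 0.191) in the Sostdc1/Wnt16 cells and -1.60 (0.0528) in the Thbd/Ndufa4l2 cells, Npr3 had -1.62 (0.0923) in the Sostdc1/Wnt16 cells and -1.77 (0.295) in the Akap12-led cells, and Edn3 had -1.41 (0.0795) in the Akap12-led cells, while Edn3 in the Sostdc1/Wnt16 cells kept its call.

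Of the contraction genes, Myl9, a myosin light chain, fell in the Akap12-led, Coch/Meox2 and Thbd/Ndufa4l2 cells by 0.86, 0.63 and 0.73, and Mylk, the kinase that phosphorylates it, fell in the chondrogenic-like cells by 1.04. Myl9 was lost without the second control (adjusted p = 0.0889) or the second ablated sample (0.214) in the Akap12-led cells, without the first control (0.194), the first (0.346) or the second ablated sample (0.0973) in the Coch/Meox2 cells and without the first (0.131) or second ablated sample (0.119) in the Thbd/Ndufa4l2 cells. Mylk was lost without the first (0.0609) or second ablated sample (0.0515). The 10 smooth muscle markers were also lower in the ablated Thbd/Ndufa4l2 cells (41.5 and 41.2 CPM against 126 and 143 CPM) and Akap12-led cells (193 and 143 CPM against 324 and 442 CPM), and their part was not tested.

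The genes whose levels were spread over the 21 populations most like each member were named by Pearson's r of mean log2(CPM + 1), as a description over populations that share libraries. They were Higd1b, Phox2a and Olfr558 for Agtr1a (r of 0.918 to 0.926), Mall, 2600014E21Rik and Sox7 for Edn1 (0.934 to 0.949) and Pdgfrb, Sgip1 and S1pr3 for Ednra (0.858 to 0.883). For Agtr2 they were Dlk1, Tbx18 and Cd248 (0.849 to 0.888), for Pde5a Tpm2, Wdr86 and Ppp1r12b (0.869 to 0.905) and for Ptgis Flrt2, Lrrn4cl and Gfpt2 (0.863 to 0.887). Agt was nearest to Prlr, Bmpr1b and Col9a1 (0.713 to 0.730), and Ednrb to P2rx7, Pde8a and Adam10 (0.786 to 0.835), the weakest likenesses of the group. After each other, Gucy1a1 was nearest to Ccdc141 and Vstm4 (0.840 and 0.826) and Gucy1b1 to Ccdc141 and Pgf (0.865 and 0.854).

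The remaining genes lie, in GRCm38, at chr2:167191805-167240604 (Ptgis, minus strand), chr3:122728947-122859374 (Pde5a, plus), chr8:77663031-77724464 (Ednra, minus), chr8:124556534-124569706 (Agt, minus), chr13:30336441-30382867 (Agtr1a, plus), chr13:42301476-42307990 (Edn1, plus) and chrX:21484544-21489164 (Agtr2, plus). Edn1, Ednra, Pde5a and Ptgis overlap annotated genes on the opposite strand, whose reads cannot be told apart from theirs unless the counting used the strand. Agtr1a overlaps Gm48161 and Gucy1a1 overlaps the microRNA gene Mir7010 on the same strand, where the strand does not separate the reads.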

How the data were processed

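The authors sequenced 10x Genomics 3' single-cell libraries of 2 control and 2 ablated samples, aligned the reads to mm10 with a reporter sequence added, and deposited raw UMI counts of each gene in each cell. The methods name version 3 of the software and the submitters' processing notes Cell Ranger 4.0.0. The members and gene lists were chosen with earlier results of these data known.

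Kept cells had between 1000 and 7500 UMIs, with shares of mitochondrial, Hba and Hbb counts of up to 25%, 25% and 50%. They numbered 6573 to 8810 per sample, with a median of 3551 to 4700 UMIs. Kept cells of any 2 libraries shared 12 to 21 barcodes. Seurat 5.3.0 in R 4.3.3 clustered them together (2000 variable genes without the 19 members and pathway genes among them, 30 principal components, resolution 0.8). Names required 3 enriched markers of a class (a UMI in 5% of cells, log2 fold of 0.8 after adding 10 CPM), of which 1 or more stood in the cluster's top 25 genes, and no other class leading its top 10. Doublets were not removed: scanpy 1.11.5's Scrublet called 0 cells, so the highest scores were left out as an alternative.

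For each population with at least 20 cells in every sample, the summed counts were tested for genotype by edgeR 4.0.16's quasi-likelihood test after filterByExpr and TMM scaling. P-values were adjusted by Benjamini-Hochberg over the genes of a population, and calls were made at 0.05. Interactions compared a population's fold change with that of the other mesenchymal cells of the same samples. DESeq2 1.42.0, the likelihood ratio test, no filter, a block for the replicate number, no upper UMI limit, all variable genes, resolutions 0.4 and 1.2, thinning to 1000 UMIs per cell and leaving out each sample were alternatives. The tests were tried on simulated counts. P-values measure the spread between the numbered samples, and intervals cover counting error only.

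Members were described in every population. Further pathway genes are named where called, up to 6 per population, together with Nos1, Nos3, Edn3, Ece1, Ace, Prkg1 and Ptgir. The labels share replicate numbers between genotypes but do not say that they mark a litter or day. Gene positions are from the GENCODE annotation of GRCm38, in which all 10 identifiers matched, and upstream sequences are RefSeq's of GRCm38.p6. Figures were drawn with matplotlib 3.10.9 in Python 3.11.15. Some results for single genes and clusters are not reported here.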

Additional observations from a re-analysis of the deposited data

Results flagged for a closer look

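In 6 of 82 pairs tested, a gene's fold change in a population differed from that in the rest of the mesenchyme. The test was edgeR's quasi-likelihood test of the interaction with Benjamini-Hochberg adjustment. It was run only in the 9 populations in which a member had been called, where 0.157 to 4.18% of all genes had such an interaction. Agtr2 in the Coch/Meox2 cells differed by 2.41 on the log2 scale (adjusted p = 0.000129), Gucy1a1 in the periurethra-like cells by -1.28 (adjusted p = 0.0205), Ptgis in the chondrogenic-like mesenchyme by 0.71 (adjusted p = 0.0283) and Ptgis in the Thbd/Ndufa4l2 cells by 0.46 (adjusted p = 0.0413). For Ednrb in the osteogenic-like cells (adjusted p = 8.49e-06) and Agt in the Thbd/Ndufa4l2 cells (adjusted p = 0.00724) both controls had 0 UMIs, so no size is given and nothing is drawn from these p-values. That of Agt was lost without the first control (0.108) or the first ablated sample (0.195). The fall of Ednrb in the periurethra-like cells did not pass this test against the rest of the mesenchyme (-1.95 ± 0.51, adjusted p = 0.0903). With 2 samples per genotype no test for a single outlying sample was run.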

How the results depend on the processing

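Of the 14 calls over the populations, DESeq2 gave 8, the likelihood ratio test 25, no filter on low counts 31, the replicate block 21 and thinning 4, and leaving out a sample gave 15 to 22. Of 0 over all cells, each of DESeq2, the likelihood ratio test, no filter, the replicate block, thinning, the doublet setting and every leave-one-out fit gave 1, Ptgis. The 3 calls in the pooled mesenchyme became 1 to 3 without a sample. The 26 pathway calls became 12 with DESeq2, 48 with the likelihood ratio test, 52 without the filter, 36 with the block, 5 after thinning and 27 to 40 without a sample. The 6 interactions became 12 with the likelihood ratio test, 13 without the filter, 2 after thinning and 2 to 11 without a sample, in settings chosen after seeing the data. The differences between replicates 1 and 2 in the genotypes were weakly and inversely correlated (r = -0.234 over 15977 genes). A crossed pairing, also added later, gave 28, 3 and 50 calls for members in populations, members over all cells and pathway genes.

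Without the upper UMI limit the fold change of Myl9 in the Akap12-led cells was 0.78, of Edn3 there 0.16 and of Agt over all cells -0.27, and at resolution 1.2 that of Myl9 in the Thbd/Ndufa4l2 cells was 0.30, all with the opposite sign. Without a sample, uncalled values over all cells ran from -0.26 to 0.51 for Agt, -0.63 to 0.29 for Agtr1a, -0.42 to 0.61 for Edn1 and -0.40 to 0.16 for Agtr2, so their sign turned. At resolution 1.2 the calls of Ptgis (-0.18) and Gucy1a1 (adjusted p = 0.707) in the Thbd/Ndufa4l2 cells and of Ptgis in the Akap12-led cells (-0.49) were lost. Those of Gucy1b1 in the Sostdc1/Wnt16 cells (0.79, adjusted p = 0.467) and Gucy1a1 in the Irx1/Col7a1 cells (1.32, 0.0655) were lost there too. Without the upper UMI limit Ptgis in the Akap12-led cells was lost (-1.84, adjusted p = 0.118). Without the filter Gucy1a1 in the chondrogenic-like mesenchyme was lost (0.86, adjusted p = 0.0571). DESeq2 lost Gucy1a1 in the chondrogenic-like (adjusted p = 0.0704) and Thbd/Ndufa4l2 cells (0.0515), Ptgis in the osteogenic-like (0.077) and Coch/Meox2 cells (0.0789) and Gucy1b1 in the Sostdc1/Wnt16 cells (0.11). For Gucy1a1 in the distal glans-like cells and Agtr2 in the Coch/Meox2 cells DESeq2 gave no adjusted p, so it called neither. Thinning also lost Gucy1a1 in the Irx1/Col7a1 cells (0.285) and Ptgis in the Thbd/Ndufa4l2 cells (0.0816). After thinning Agtr2 in the Coch/Meox2 cells was not called either. At resolution 1.2 the Thbd/Ndufa4l2 name covered 989 cells, while a Thbd-led cluster of 828 cells was named as prepuce fibroblasts. A Gria2-led cluster of 1888 cells, with Iyd among its leading genes, lay outside the Akap12-led name there. Without the upper UMI limit a cluster of 2098 cells named as smooth muscle had Akap12 among its leading genes. The names thus covered different cells in these settings, and the causes of the changes were not tested. Over all results and settings, 628 values kept direction and side of the threshold, 131 lost a call without turning direction, 13 gained one and 10 turned direction, 3 of which also lost a call. Depth limits Agtr1a (141 UMIs in the kept cells), Edn1 (113) and Nos1 (5 to 18 per sample).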
